A study of Mus musculus with 5 samples.

Results

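MutuDC cells, an established mouse line grown from dendritic cells of the cDC1 kind, were compared after 24 h and after 2 h with the compound that the labels spell Fanchinoline. The comparison uses 2 of the 5 libraries of the series, the library at 24 h and the library at 2 h. Of 53700 genes in the count table, the 8690 with at least 10 CPM (counts relative to the size of the library) in either library were compared. The other libraries, at 6 h and 12 h with the compound and 1 labelled vehicle control, are given beside these values as context.

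The series follows the cells over time to find genes and pathways that the compound alters. Gene expression was measured by sequencing poly-A RNA from total RNA of cultured cells, with 1 count column per time point. The labels give no genetic modification of the line, the sources used here give no dose, and all libraries other than vehicle had the compound. The design text names untreated cells and triplicates, while the labels name vehicle and 1 sample per time; whether the columns pool replicates is not stated. Both libraries compared here carry the compound, so they differ in hours with it and in hours in culture, which cannot be told apart.

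The totals were 40730837 counts at 24 h and 37589066 at 2 h, and 33568526 to 42854511 over all 5 libraries. At 10 CPM a gene had 427 counts at 24 h and 373 at 2 h, and a count of 0 allows up to 0.0703 CPM at 24 h and 0.0804 CPM at 2 h (3 counts). Mitochondrially encoded genes took 1.75% of counts at 24 h, against 1.44% at 2 h. The cDC1 markers were present, with the lineage factor Irf8 at 3283 CPM at 24 h and 5140 CPM at 2 h, the chemokine receptor Xcr1 at 298 and 288 CPM, and the dead-cell receptor Clec9a at 251 and 215 CPM. The integrin Itgae was low, at 1.48 CPM at 24 h and 2.17 CPM at 2 h. The T cell genes Cd3e and Cd3d, the NK gene Ncr1 and the granulocyte genes S100a8, S100a9 and Ly6g were at 0 in all 5 libraries. In bulk RNA, fewer cells of a type and less RNA per cell cannot be told apart.

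Genes were called where the log2 ratio of 24 h over 2 h was at least 1 in size, in either direction, and where the 95% exact (Clopper-Pearson) interval left out 0. The interval covers counting error only. PCR copies of a molecule are counted as separate reads, so it can be too narrow even for that. With 1 library per time point there is no replicate spread, so no p-value belongs to the ratio, and a call compares 2 libraries. By this rule 76 genes were called higher at 24 h (0.875% of those compared) and 58 lower (0.667%), and the median over all compared genes was -0.02. Of the 76 higher genes 42 reached 10 CPM at 24 h alone, against 228 of the 8690 compared. Of the 58 lower genes 25 did so at 2 h alone, against 194 of the 8690. Among them, and named below, are Mgarp, Ak4, P4ha2, Bcar1, Cers4, Ccng2, Trp53inp1, Foxj1 and Arrdc4, which passed at 24 h alone. So did Axl, Ifit2, Oas1a, Samd9l, Slfn8, C3ar1, Havcr2 and Cybb, among others. Slc1a4, Trib3, Chac1 and Nupr1 were among those that passed at 2 h alone. Such genes entered the comparison through the library where they are high, so the minimum itself favours the direction of their ratios. Just inside the threshold lay Esco2 (1.002; 20.9 CPM at 24 h, 10.4 CPM at 2 h) and Ptp4a3 (-1.0005), and just outside Gm10481 (0.99) and Stk40 (-0.99). Just inside the 10 CPM minimum lay Apool, with 10.003 CPM at 24 h and 7.98 CPM at 2 h, and just outside it Commd1b, with 4.33 CPM at 24 h and 9.99 CPM at 2 h.

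Members of 2 well-studied programmes stand at opposite ends of the ratio. Cells sense oxygen through prolyl hydroxylases that mark the HIF transcription factors for degradation, and when these enzymes are inactive HIF switches on glycolysis, lactate export, mitophagy and collagen hydroxylation. ATF4 is a transcription factor that carries out the integrated stress response, used by cells when amino acids run short or translation initiation is inhibited; its targets import and make amino acids and charge transfer RNAs. Dendritic cells are known to raise glycolysis on activation, and cDC1 cells specialise in presenting antigen from dead cells to CD8 T cells.

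**Figure D1:**
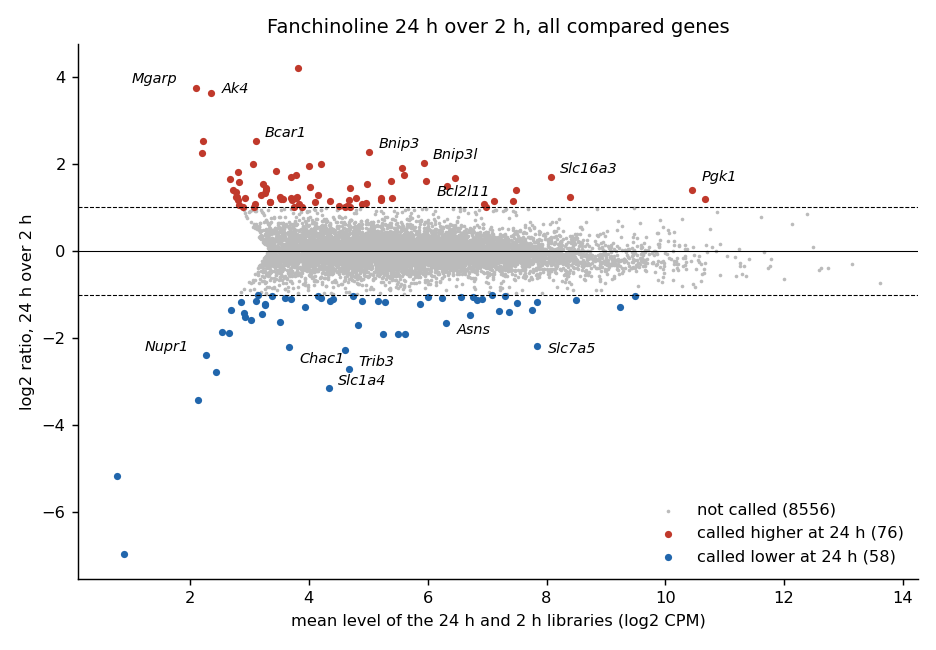
The log2 ratio of 24 h over 2 h for each of the 8690 compared genes against its mean level in the 24 h and 2 h libraries (log2 CPM). Red points are the 76 genes called higher and blue points the 58 called lower; dashed lines mark log2 ratios of 1 and -1, and among the labelled genes Mgarp (3.74) and Ak4 (3.64) lie highest and Slc1a4 (-3.16) lowest.

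Hypoxia-inducible genes were higher at 24 h than at 2 h. Of 22 compared members of the list, 11 were called higher and 0 lower, against 0.875% and 0.667% of all compared genes, and their median log2 ratio was 0.97. Mgarp, a mitochondrial protein (chromosome 3, 51388412 to 51396738, minus strand), had 1.19 CPM in vehicle and then 1.15, 4.97, 12.3 and 16.05 CPM after 2, 6, 12 and 24 h. Its log2 ratio of 24 h over 2 h was 3.74 (interval 3.35 to 4.28), from 685 counts at 24 h and 43 at 2 h. Ak4, a mitochondrial adenylate kinase (chromosome 4, 101419277 to 101466995, plus strand), had 0.427 CPM in vehicle and then 1.42, 7.09, 14.7 and 18.2 CPM after 2, 6, 12 and 24 h (3.64, 3.28 to 4.11). P4ha2, a subunit of collagen prolyl hydroxylase (chromosome 11, 54100095 to 54131665, plus strand), had 1.19, 1.90, 7.42, 13.5 and 11.3 CPM in the same order (2.53, 2.20 to 2.95). All 3 genes were low in vehicle and at 2 h, and their values at 6, 12 and 24 h lay above both.

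The promoters shown are those of the 3 called hypoxia members with the highest ratios among members with a promoter in the RefSeq table. The core letters of the hypoxia response element, ACGTG or GCGTG, were searched on both strands. Each window runs from 250 bases before to 50 after the start that RefSeq gives on GRCm38.p6, 5′ to 3′ on the strand of the gene, and capitals mark every match (a reverse-strand match reads CACGT or CACGC). The windows are chr3:51396498-51396797 (minus strand) for Mgarp, chr4:101419039-101419338 (plus strand) for Ak4, the first of 4 starts listed, and chr11:54100674-54100973 (plus strand) for P4ha2.
Mgarp: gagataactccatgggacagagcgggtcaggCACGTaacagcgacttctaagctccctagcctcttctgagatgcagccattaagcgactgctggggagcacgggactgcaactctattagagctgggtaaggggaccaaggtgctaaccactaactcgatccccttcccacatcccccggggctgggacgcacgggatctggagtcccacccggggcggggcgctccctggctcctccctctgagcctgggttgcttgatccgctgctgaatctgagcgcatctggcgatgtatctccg
Ak4: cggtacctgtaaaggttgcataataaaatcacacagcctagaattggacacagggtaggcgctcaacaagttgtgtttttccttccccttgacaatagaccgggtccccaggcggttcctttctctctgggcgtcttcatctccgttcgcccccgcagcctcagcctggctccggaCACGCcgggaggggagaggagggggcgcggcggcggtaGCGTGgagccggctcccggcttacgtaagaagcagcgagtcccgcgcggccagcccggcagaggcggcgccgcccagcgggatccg
P4ha2: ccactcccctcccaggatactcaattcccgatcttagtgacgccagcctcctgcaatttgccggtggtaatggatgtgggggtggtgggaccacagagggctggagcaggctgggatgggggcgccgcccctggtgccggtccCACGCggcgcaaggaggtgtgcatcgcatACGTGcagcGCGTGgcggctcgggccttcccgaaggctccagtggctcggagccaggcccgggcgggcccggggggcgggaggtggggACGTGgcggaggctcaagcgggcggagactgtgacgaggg
Mgarp has 1 match, Ak4 has 2 and P4ha2 has 4. Of 22 hypoxia list members 19 had a promoter in the table, and 18 of these (94.7%) held a match. The core is short and common: it was found in 66.6% of promoters of compared genes (4611 of 6928), 43.8% of all 27025 promoters and 83.3% of promoters of the ATF4 lists (30 of 36). Among all called genes it was found in 29 of 52 promoters of those called higher (55.8%), a smaller share than in the compared genes, and in 31 of 37 of those called lower (83.8%).

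The other called hypoxia members belong to mitochondrial turnover, lactate export and oxygen sensing. The mitophagy receptor Bnip3 had 14.9 CPM in vehicle and then 14.7, 54.8, 78.6 and 71.6 CPM after 2, 6, 12 and 24 h (2.28, 2.16 to 2.42). Its relative Bnip3l was at 123 CPM at 24 h, against 30.4 CPM at 2 h (2.02), and Higd1a, a mitochondrial protein of hypoxia, at 88.7 against 26.3 CPM (1.75). The lactate exporter Slc16a3 was already at 477 CPM at 6 h and at 590 CPM at 12 h, with 485 CPM at 24 h against 149 CPM at 2 h (1.71, 1.67 to 1.75). Fam162a (1.61), pyruvate dehydrogenase kinase Pdk1 (1.497), the oxygen sensor Egln1 (1.15) and the glucose transporter Slc2a1 (1.01) complete the 11. Among the members not called were Bhlhe40 (0.92) and Ndrg1 (0.86), and below 0 lay Hk2 (-0.14), which was at 195 CPM at 24 h and 214 CPM at 2 h, and Ppfia4 (-0.41).

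Glycolysis genes stood higher along most of the pathway. Of 20 compared, 7 were called higher and 0 lower, against 0.875% and 0.667% of all compared genes. The median was 0.70, and Slc2a1 and Slc16a3 are in this list as well. Phosphoglycerate kinase Pgk1 had 712 CPM in vehicle and then 865, 1274, 2236 and 2270 CPM after 2, 6, 12 and 24 h (1.39, 1.37 to 1.41). Aldoc, a fructose bisphosphate aldolase, was at 158 CPM at 24 h against 49.3 CPM at 2 h (1.68), and the phosphofructokinase Pfkl at 517 against 218 CPM (1.25). Triose phosphate isomerase Tpi1 had a ratio of 1.19 and hexokinase Hk1 of 1.08. The most abundant members did not reach the threshold: Gapdh was at 7147 CPM at 24 h and 3980 CPM at 2 h (0.84), pyruvate kinase Pkm at 5603 and 3628 CPM (0.63) and lactate dehydrogenase Ldha at 4108 and 2395 CPM (0.78). Pfkfb3, which makes the activator of phosphofructokinase, went the other way, at 31.3 CPM at 24 h and 42.3 CPM at 2 h (-0.43). Of the 76 entries called higher, 8 are annotated as processed pseudogenes, among them Pgk1-rs7 (1.83), a copy of Pgk1 that may share its reads.

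Bcar1, an adaptor of focal adhesions (chromosome 8, 111710474 to 111743809, minus strand), was among the highest genes outside these lists, with 2.78 CPM in vehicle and then 3.56, 10.6, 19.4 and 20.9 CPM after 2, 6, 12 and 24 h (2.54, 2.29 to 2.83). It was the called member of 15 focal adhesion adaptors, whose median was 0.03. Cers4, a ceramide synthase, was likewise the called member of 15 sphingolipid enzymes, at 10.2 CPM at 24 h against 2.09 CPM at 2 h (2.26).

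**Figure D2:**
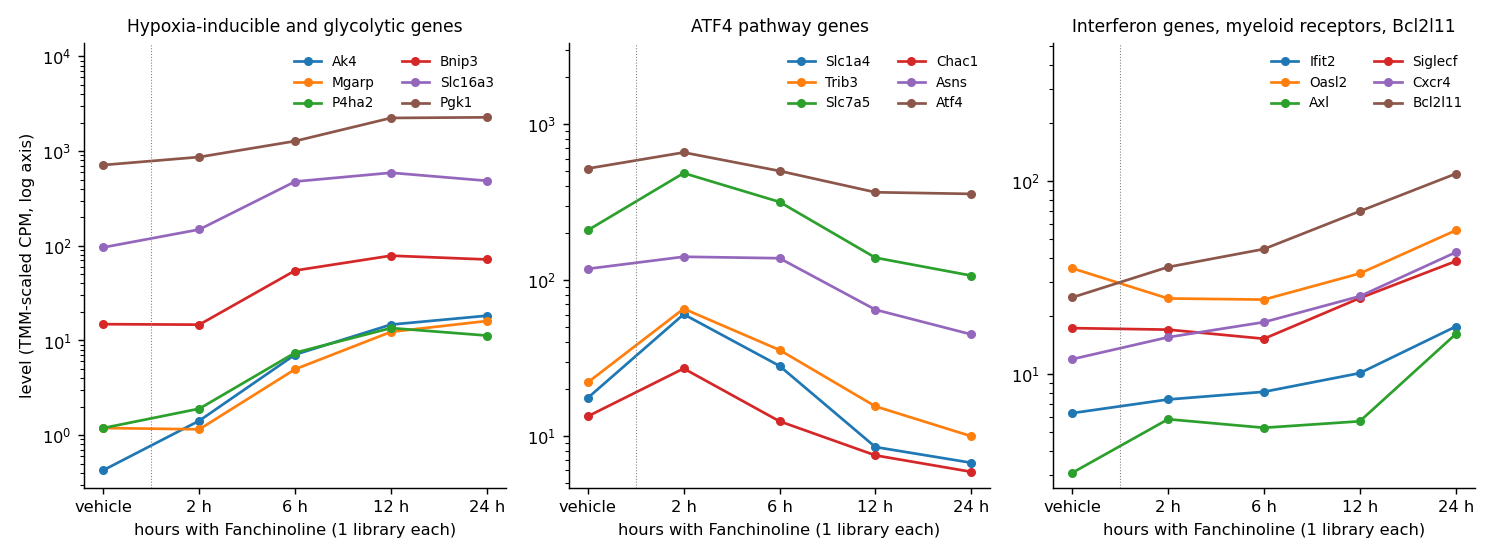
Levels (TMM-scaled CPM, log axis) of 18 genes in the vehicle library and after 2, 6, 12 and 24 h with Fanchinoline, 1 library per point and no error bars because there are no replicates. Hypoxia-inducible and glycolytic genes climb mostly between 2 h and 12 h, the ATF4 pathway genes are highest at 2 h, and the interferon genes, myeloid receptors and Bcl2l11 are highest at 24 h.

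Amino acid transporters among the ATF4 targets were lower at 24 h than at 2 h. Of 10 compared, 6 were called lower, against 0.667% of all compared genes, and 0 higher; the median was -1.10 and all 10 ratios lay below 0. Slc1a4, a transporter of small neutral amino acids (chromosome 11, 20302180 to 20332713, minus strand), had 17.5 CPM in vehicle and then 60.4, 28.1, 8.48 and 6.72 CPM after 2, 6, 12 and 24 h. Its log2 ratio was -3.16 (-3.35 to -2.99), the lowest of all called genes that share no exon bases with another gene. Slc7a5, the light chain of the large neutral amino acid transporter, had 209, 487, 318, 139 and 107 CPM in the same order (-2.19, -2.23 to -2.14). Its heavy chain Slc3a2 was at 153 CPM at 24 h and 345 CPM at 2 h (-1.18). The glycine transporter Slc6a9 (-2.27), the cationic transporter Slc7a1 (-1.40) and the glutamine transporter Slc1a5 (-1.03) were the other called members; after adjustment for GC content Slc1a5 did not pass (-0.89), which left 5. The amino acid transporters Slc38a2 (-0.18), Slc38a1 (-0.28) and Slc7a6 (-0.17) had smaller ratios.

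Enzymes of amino acid and one-carbon metabolism in the ATF4 pathway showed the same direction. Of 15 compared, 8 were called lower and 0 higher, against 0.667% and 0.875% of all compared genes, with a median of -1.13. Chac1, which degrades glutathione, was at 5.88 CPM at 24 h against 27.1 CPM at 2 h (-2.19, -2.41 to -2.003). Asparagine synthetase Asns had 118 CPM in vehicle and then 141, 138, 64.6 and 44.8 CPM after 2, 6, 12 and 24 h (-1.65). The transaminases Gpt2 and Bcat1 (-1.91 each), mitochondrial phosphoenolpyruvate carboxykinase Pck2 (-1.89), cystathionine lyase Cth (-1.88), proline synthesis enzyme Aldh18a1 (-1.37) and serine hydroxymethyltransferase Shmt2 (-1.13) were the others; after adjustment for GC content Shmt2 did not pass (-0.98), which left 7. The serine synthesis enzymes Psat1 (-0.89), Psph (-0.80) and Phgdh (-0.76) did not reach the threshold, and Mthfd1l was at 0.44.

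The regulators of the pathway were less even. Of 18 compared, 4 were called lower and 0 higher, against 0.667% and 0.875% of all compared genes, with a median of -0.63. Trib3, a pseudokinase that dampens ATF4 and AKT (chromosome 2, 152337422 to 152344032, minus strand), had 22.1 CPM in vehicle and then 65.5, 35.6, 15.5 and 9.96 CPM after 2, 6, 12 and 24 h (-2.71, -2.87 to -2.57). Nupr1, a stress-induced chromatin protein (chromosome 7, 126623249 to 126630861, minus strand), had 11.8, 11.1, 9.94, 3.45 and 2.08 CPM in the same order (-2.38). The leucine sensor Sesn2 (-1.46) and the translation repressor Eif4ebp1 (-1.10) were also called. Atf4 itself was at 358 CPM at 24 h and 660 CPM at 2 h (-0.88), and Ddit3, which encodes CHOP, at 18.4 and 35.5 CPM (-0.95). Of the 18 ratios 4 lay above 0, those of Ndrg1 (0.86), the double-stranded RNA kinase Eif2ak2 (0.67), the mTORC1 inhibitor Ddit4 (0.38) and the endoplasmic reticulum stress kinase Eif2ak3 (0.33). After adjustment for GC content Ddit3 was called too (-1.03), giving 5. The shapes over time also differed: Slc1a4, Trib3, Slc7a5 and Chac1 were highest at 2 h of the 5 libraries, while Nupr1 was about as high in vehicle as at 2 h.

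The promoters of Slc1a4, Trib3 and Nupr1, the 3 lowest ATF4 list members with a promoter in the RefSeq table, are shown with the core of the CARE element (C/EBP-ATF response element), TGATGNAA, searched on both strands. The windows, on GRCm38.p6 and 5′ to 3′ on the strand of the gene, are chr11:20332664-20332963 for Slc1a4, chr2:152344011-152344310 for Trib3 and chr7:126625421-126625720 for Nupr1, all on the minus strand. Capitals mark the matches, which all lie on the reverse strand and so read TTGCATCA or TTACATCA.
Slc1a4: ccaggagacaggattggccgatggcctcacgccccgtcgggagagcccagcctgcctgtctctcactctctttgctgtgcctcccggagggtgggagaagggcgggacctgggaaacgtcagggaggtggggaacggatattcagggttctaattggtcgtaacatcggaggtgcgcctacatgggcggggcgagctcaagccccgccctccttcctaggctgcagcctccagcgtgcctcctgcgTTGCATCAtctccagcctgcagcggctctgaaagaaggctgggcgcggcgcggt
Trib3: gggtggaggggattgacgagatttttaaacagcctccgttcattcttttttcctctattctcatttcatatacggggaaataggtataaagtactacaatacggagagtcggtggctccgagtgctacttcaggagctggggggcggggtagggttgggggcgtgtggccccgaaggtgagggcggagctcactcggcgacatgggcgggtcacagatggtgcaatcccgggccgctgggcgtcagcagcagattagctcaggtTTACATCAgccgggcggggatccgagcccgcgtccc
Nupr1: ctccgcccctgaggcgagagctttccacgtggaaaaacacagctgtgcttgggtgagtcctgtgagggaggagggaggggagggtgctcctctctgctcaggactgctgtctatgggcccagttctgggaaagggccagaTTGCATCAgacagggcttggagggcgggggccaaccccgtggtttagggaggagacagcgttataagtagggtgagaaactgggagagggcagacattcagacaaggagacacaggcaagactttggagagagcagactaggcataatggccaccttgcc
Each window has 1 match, starting 4 bases before the start site in Slc1a4, at 14 bases after it in Trib3 and 110 before it in Nupr1. The core was found in 9 of 36 promoters of the 3 ATF4 lists (25%), in 6 of 37 promoters of genes called lower (16.2%) and in 0 of 52 of genes called higher. Its share was 2.11% over the promoters of compared genes (146 of 6928) and 4.06% over all 27025.

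Aminoacyl-tRNA synthetases, which charge transfer RNAs with amino acids, lay lower with smaller ratios. Of 20 compared, 1 was called lower (Cars, the cysteine enzyme, -1.07) and 0 higher, against 0.667% and 0.875% of all compared genes. The median was -0.50, and 19 of 20 ratios lay below 0. Cars did not pass after adjustment for GC content (-0.98), which left 0 called. Iars, for isoleucine, was at 244 CPM at 24 h and 437 CPM at 2 h (-0.84), Aars, for alanine, at 561 and 986 CPM (-0.81), and Dars, for aspartate, was at 0.16.

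**Figure D3:**
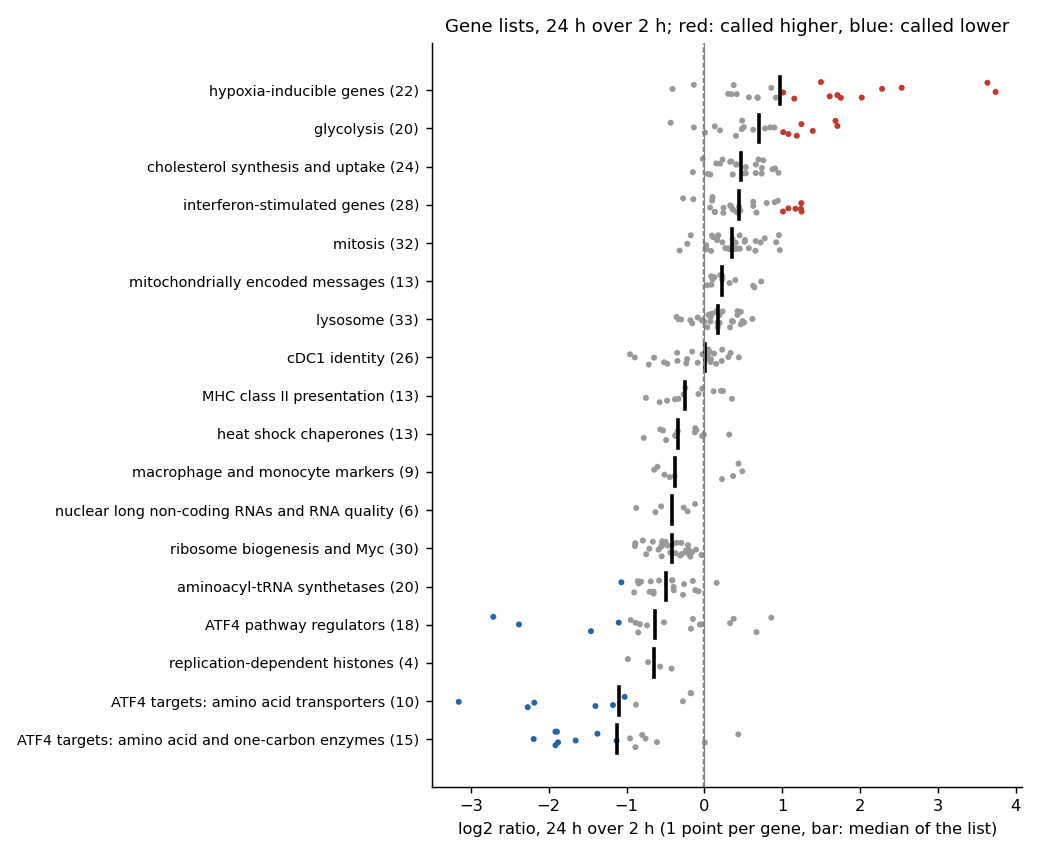
Log2 ratios of 24 h over 2 h (horizontal axis) for the members of 18 gene lists, 1 point per gene, with the number compared in brackets and a black bar at the median of the list; the dashed line is the median of all compared genes. Red and blue points are called higher and lower: the called members sit mostly in the hypoxia, glycolysis and ATF4 lists, and the cDC1 identity list is centred on 0.01.

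Genes of ribosome production were lower at 24 h throughout, mostly with ratios too small to be called. All 30 compared ribosome biogenesis genes, Myc included, had ratios below 0, with a median of -0.42 and 0 called. Noc2l, a ribosome assembly factor, was at 141 CPM at 24 h and 262 CPM at 2 h (-0.89), and Myc, the transcription factor that drives the programme, at 163 and 238 CPM (-0.54). Of 77 cytosolic ribosomal proteins 76 were below 0, with a median of -0.29. Rpl13, at 387 CPM at 24 h and 950 CPM at 2 h (-1.29), was the called member and stood apart from the next, Rps2 (-0.79). Heat shock chaperones had a median of -0.34 over 13 genes with 0 called.

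Cholesterol genes were higher at 24 h without any being called. The median over 24 compared genes was 0.47, with 22 above 0. The largest ratios were those of Idi1 (0.95) and Acat2 (0.91), enzymes early in sterol synthesis; reads of Acat2 may be shared with a closely similar gene.

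The lists moved at different times between 2 h and 24 h. The hypoxia list had a median log2 step of 0.81 from 6 h against 2 h, of 0.30 from 12 h against 6 h and of -0.10 from 24 h against 12 h. Glycolysis had steps of 0.45, 0.31 and -0.13 and cholesterol genes steps of 0.47, 0.29 and -0.26 in the same order, so that the last step lay below 0 in all 3 lists. The ATF4 transporters had steps of -0.26, -0.66 and -0.11 and the ATF4 enzymes steps of -0.03, -0.72 and -0.29, with the largest drop between 6 h and 12 h. Interferon-stimulated genes had steps of 0.05, 0.14 and 0.33, the largest being the last. Over all compared genes the median steps were 0.01, -0.01 and -0.03. Among the 76 genes called higher, the largest of the 3 steps was the first in 40, the second in 14 and the last in 22, and 52 moved in 1 direction at each step. Among the 58 called lower, it was the first in 10, the second in 38 and the last in 10, and 45 moved in 1 direction at each step.

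**Figure D4:**
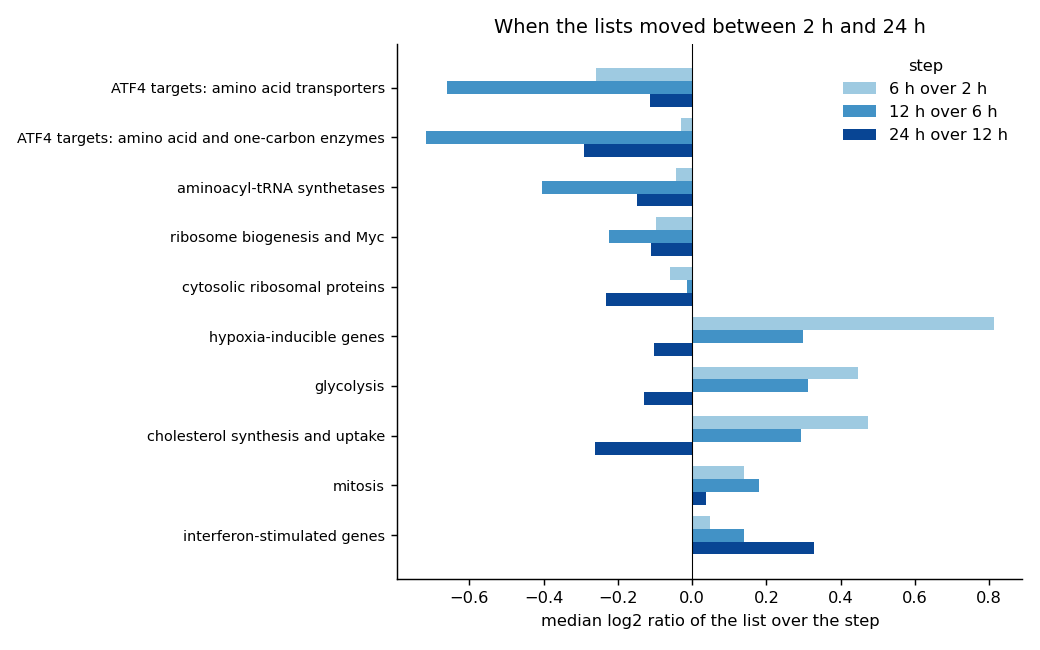
Median log2 ratio of each of 10 gene lists over the steps 6 h over 2 h, 12 h over 6 h and 24 h over 12 h; bars are medians over list members and carry no error because each time point has 1 library. The ATF4 lists drop most between 6 h and 12 h, the hypoxia list has its largest step first, and the interferon-stimulated list has its largest step last.

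A trend over the 4 treated libraries was tested for 8741 genes by regression on log2 hours with edgeR's quasi-likelihood test. At a Benjamini-Hochberg adjusted p of 0.05, 974 genes rose (11.1%) and 1045 fell (12%). These calls depend on the minimum level: with no filter, over 23437 genes, 0 passed and the smallest adjusted p was 0.093. The spread in this test is the scatter of the 4 points about their line (2 residual degrees of freedom), not that of replicates, and it uses the 2 h and 24 h libraries too, so it gives no independent support. Without the 2 h library 1195 genes passed, without 12 h 1334 and without 24 h 741, against 2019 with all 4. With an adjustment for GC content in the fit 1520 passed, 715 rising and 805 falling. Among those that passed were 72 of the 76 genes called higher and 54 of the 58 called lower, 16 of 22 hypoxia genes (rising), 12 of 15 ATF4 enzymes (falling), 14 of 20 synthetases (falling), 20 of 30 ribosome biogenesis genes (falling) and 19 of 32 mitosis genes (rising). With the filter the adjusted p was 0.0021 for Mgarp and 0.0012 for Slc1a4.

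Interferon-stimulated genes were higher at 24 h, mostly by less than the threshold. Of 28 compared, 6 were called higher and 0 lower, against 0.875% and 0.667% of all compared genes, with a median of 0.44. Ifit2, which binds viral RNA, had 6.28 CPM in vehicle and then 7.39, 8.10, 10.1 and 17.6 CPM after 2, 6, 12 and 24 h (1.25, 1.05 to 1.46). Oasl2, of the oligoadenylate synthetase family, was at 55.6 CPM at 24 h and 24.7 CPM at 2 h (1.17), and had 35.4 CPM in vehicle. Oas1a (1.24), Samd9l (1.24), Slfn8 (1.08) and Ifi203 (1.01) were the others. Of these, Samd9l (0.99), Slfn8 (0.96) and Ifi203 (0.75) did not pass after adjustment for GC content. Ifit2, Oas1a, Samd9l and Slfn8 were under 10 CPM at 2 h (7.39, 4.45, 4.50 and 9.83). They entered the comparison through the 24 h library alone, so the minimum itself favours their direction. Ifi203 shares exon bases with Mndal on the same strand, and summed with it the ratio was 0.76, under the threshold. The signalling gene Irf9 was at 0.10, Isg15 at 0.36 and Oasl1 at -0.27.

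Cell death and cell cycle genes were represented by a few members. Bcl2l11, which encodes the pro-apoptotic BIM (chromosome 2, 128126038 to 128162547, plus strand), had 24.98 CPM in vehicle and then 35.9, 44.5, 69.9 and 109 CPM after 2, 6, 12 and 24 h (1.60, 1.52 to 1.69), and was the called member of 24 genes of the BCL2 family and apoptosis (median 0.10). Pmaip1, another pro-apoptotic gene, was at 48.4 CPM at 24 h and 25.4 CPM at 2 h (0.93), while the 3 entries of the survival gene Bcl2a1 lay between -0.77 and -0.46; these are near copies and may share reads. Of 13 p53 targets, Trp53inp1 (1.83) and Cdkn1a, the cell cycle inhibitor p21 (45.5 CPM at 24 h, 21.1 CPM at 2 h; 1.11), were called higher and Sesn2 lower, with a median of 0.26 for the list. Ccng2, a cyclin of quiescent cells, was at 31.8 CPM at 24 h and 8.14 CPM at 2 h (1.96). Mitosis genes lay higher rather than lower: 29 of 32 lay above 0, with a median of 0.36 and 0 called. Mki67 was at 508 CPM at 24 h and 321 CPM at 2 h (0.66) and the checkpoint kinase Bub1 at 0.96. After adjustment for GC content the mitosis median was 0.29. Against vehicle the median of the list was -0.23 at 2 h and 0.16 at 24 h, so the ratio starts from a lower level at 2 h. The spindle gene Nusap1 had 89.1 CPM in vehicle and then 55.4, 65.7, 79.4 and 94.9 CPM after 2, 6, 12 and 24 h.

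Among genes of dendritic cell identity and antigen presentation, 0 of 26 cDC1 identity genes, 13 class II genes and 22 class I genes were called. Over all compared genes 0.875% were called higher and 0.667% lower, so 0 called in lists this small does not set them apart. The cDC1 list was split evenly, with a median of 0.01, 13 members above 0 and 13 below. Cd8a, the surface marker of the lineage, was lowest at 13.7 CPM at 24 h and 26.7 CPM at 2 h (-0.96), and was called lower after adjustment for GC content (-1.003); the transcription factors Zbtb46 (-0.89), Irf8 (-0.65) and Batf3 (-0.48) were also below 0, while Xcr1 (0.05), Clec9a (0.22) and Cadm1 (0.23) were not. The class II beta chain H2-Ab1 was at 1092 CPM at 24 h and 1838 CPM at 2 h (-0.75). The class II median was -0.25. Class I genes had the same median of -0.25, with 19 of 22 below 0, the peptide transporter subunit Tap2 at -0.53 and H2-D1 at -0.51. After adjustment for GC content the medians were -0.15 for class II and -0.17 for class I. The costimulatory Cd86 was at 97.2 CPM at 24 h and 100.5 CPM at 2 h. Macrophage and monocyte markers summed to 742 CPM at 24 h and 837 CPM at 2 h, with the defining Mertk at 0 in both and 4 of 20 markers at 0 at 24 h, against 5 at 2 h.

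Several of the largest ratios belong to entries that share exon bases with another gene on the same strand, where reads can be assigned in more than 1 way. These are 8 of the 76 genes called higher and 13 of the 58 called lower, against 812 of 8690 compared. On either strand they are 23 of the 76 (30.3%) and 26 of the 58 (44.8%), against 3361 of 8690 compared (38.7%). The kit does not mark strand, so reads of opposite-strand overlaps can be ambiguous too, but these overlaps were not summed. Bnip3, Higd1a, Cers4, Tpi1, Hk1, Txnip and Cdkn1a are called genes with exon bases shared on the opposite strand alone. When each same-strand entry was summed with the genes it overlaps on that strand, 1 of the 8 and 4 of the 13 still passed a log2 ratio of 1 in size. Gm45717, with the lowest ratio of all (-6.97), had 23.9 CPM in vehicle and then 24.1, 0.0707, 0.0795 and 0.141 CPM after 2, 6, 12 and 24 h. Summed with its neighbours, chiefly Ifitm2, the ratio was 0.03. Gm21982, with the highest ratio (4.197), overlaps the RNA-binding gene Rbm42, called lower at -1.06, and their sums gave -0.33 and -0.23. One of the 2 entries of Nnt had a ratio of 1.74 and the summed entries 0.04. Rpl13, whose partners hold almost no counts, kept its ratio (-1.29).

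The 2 libraries also differed by base composition. Compared genes in the lowest quintile of transcript GC content had a median ratio of 0.17, and the next quintiles 0.04, -0.04, -0.11 and -0.18, a difference of -0.35 between top and bottom. Of the 58 genes called lower, 32 lay in the highest quintile and 1 in the lowest; the genes called higher were spread over all quintiles, from 11 to 21. By transcript length the same difference was 0.16. After a smooth adjustment for GC content 93 genes were called higher (1.07%) and 49 lower (0.564%), with 67 of the 76 and 40 of the 58 called as before. The adjusted medians were 1.01 for hypoxia genes, 0.81 for glycolysis, -0.99 for ATF4 transporters, -0.98 for ATF4 enzymes and -0.50 for synthetases. Calls that did not pass after adjustment include Junb (-1.12, adjusted -0.87) and Jund (-1.07, adjusted -0.72), subunits of the AP-1 transcription factor. The mitochondrially encoded messages changed sign, with a median of 0.23 over 13 genes and -0.13 after adjustment. The median of the cDC1 list became -0.14. Scaled to total counts, 123 genes were called higher and 47 lower (72.4% higher among called genes, against 56.7% with TMM), so the balance of the 2 directions depends on the scaling.

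**Figure D5:**
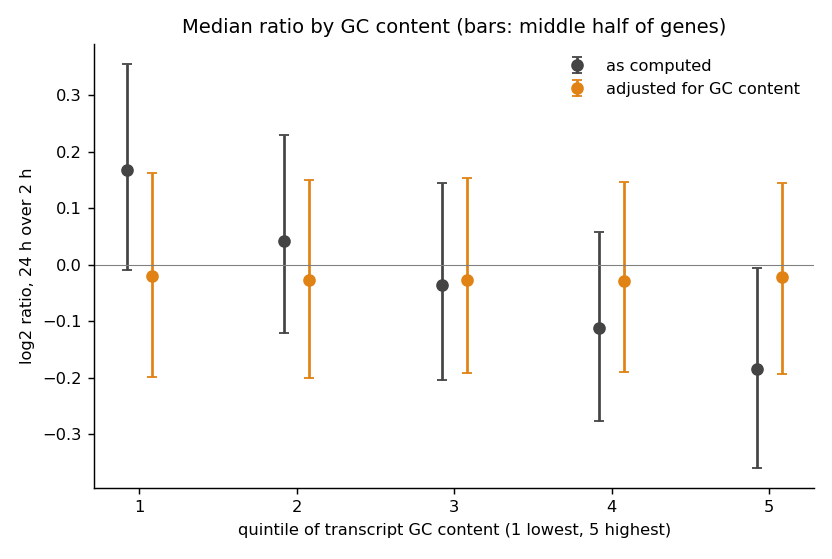
Median log2 ratio of 24 h over 2 h (points) and the middle 50% of genes (bars) in quintiles of transcript GC content, 1 lowest and 5 highest, over the compared genes found in the annotation. As computed, the medians run down to -0.18 in the top quintile; after adjustment for GC content they lie between -0.03 and -0.02.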

How the data were processed

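The deposited table holds raw counts per gene that the authors made, 1 column per time point; per the submitters' processing notes, reads were trimmed with Trim Galore and aligned with HISAT2 to GRCm38 of the mouse; no tool versions are listed. The program and annotation behind the counts, and any use of strand, were not given in the sources used here. Per the labels' protocols the TruSeq kit used does not mark strand. TMM factors of edgeR 4.0.16 over all 5 libraries lay between 0.977 and 1.05, and log2 CPM used a prior count of 2 (limma 3.58.1 and R 4.3.3; DESeq2 1.42.0 served as an alternative). The comparison took genes that reached 10 CPM in either library. The trend was fitted to genes with 10 CPM in at least 1 of the 4 treated libraries. Both steps were run on simulated counts with planted changes. The simulation held no GC difference and no shared exon bases, so it cannot show how the calls hold under these.

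Positions, overlaps, transcript length and GC content of the longest transcript were taken from the GENCODE annotation of GRCm38, in which 99.9% of compared genes were found. The GC adjustment subtracts a loess curve (span 0.5) and keeps the overall median. Of 50 gene lists, 45 with at least 3 compared members are described by counts and medians. The members and lists were chosen with earlier results of these data known. Named genes were the 15 highest and 15 lowest called genes with an ordinary symbol and no exon bases shared on either strand, the 6 members of each list farthest from 0, the 6 highest and 6 lowest slopes, and genes listed by name. Other genes are named as members that make up a count, as entries that share exons, or after their values were seen. Alternatives were other scalings, minimums, prior counts, thresholds and neighbouring time points.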

Additional observations from a re-analysis of the deposited data

How the results depend on the processing

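No paired analysis was possible because each time point has 1 library. The number of genes called (134, with 76 higher and 58 lower) depended most on the minimum level: 399 (248 and 151) at 1 CPM, 67 (34 and 33) at 30 CPM and 1158 (653 and 505) with no minimum. A threshold of 0.5 gave 1047 (530 and 517). Leaving out genes that share exon bases on either strand gave 85, of which 32 were lower, and total counts gave 123 higher. With neighbouring time points in place, 24 h over 6 h gave 65 (31 and 34) and 12 h over 2 h gave 79 (44 and 35). The GC difference between top and bottom quintiles was -0.25 with no minimum, -0.0017 after GC adjustment and 0.0052 after adjustment for GC content and length. Of 45 lists, 14 had a median of at least 0.3 in size. With edgeR's trend test 2019 genes passed, and DESeq2 gave 2066. Adjustment for GC content in the trend fit gave 1520 (715 rising, 805 falling). Without a filter 0 passed (0 rising, 0 falling), while 4379 of 23437 genes had an unadjusted p under 0.05. A slope on hours gave 627 rising and all 5 libraries 618 falling. Without 2 h 1195 passed (441 rising), without 12 h 1334 (638 rising, 696 falling) and without 24 h 741 (457 rising, 284 falling). For 280 named genes, GC adjustment ended 7 calls and added 4, and total counts ended 3 and added 5; no direction of a called value reversed. Counts per gene are high, so depth limits chiefly genes near 10 CPM, and the missing replicates limit all.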

Other observations

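Surface receptors and enzymes of myeloid cells were found among the genes called higher at 24 h; they were picked out after their values were seen and no list was made of them. The receptor kinase Axl, which takes part in clearing dead cells, had 3.08 CPM in vehicle and then 5.84, 5.28, 5.70 and 16.1 CPM after 2, 6, 12 and 24 h, with a log2 ratio of 1.46 for 24 h over 2 h (1.24 to 1.69). Its level at 24 h stood apart from the other 4 libraries. The chemokine receptor Cxcr4 was at 42.8 CPM at 24 h and 15.5 CPM at 2 h (1.46), the lectin Siglecf at 38.5 and 17.0 CPM (1.17), the anaphylatoxin receptor C3ar1 at 21.4 and 8.98 CPM (1.25), the checkpoint receptor Havcr2 at 21.1 and 9.002 CPM (1.22) and the oxidase subunit Cybb at 19.8 and 8.49 CPM (1.22). The SLAM family receptor Cd244a was at 53.5 and 18.4 CPM (1.54). Axl, C3ar1, Havcr2 and Cybb were under the minimum level at 2 h. These genes entered the comparison through the 24 h library alone, so the minimum itself favours their direction. The written list of macrophage and monocyte markers did not share this direction. Its median log2 ratio was -0.38 over 9 compared members, with 4 above 0 and 5 below, and 0 were called. The summed level of the list was 742 CPM at 24 h and 837 CPM at 2 h. The part of macrophages or monocytes in the values of the receptors and enzymes above was not tested.

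Ighm, the constant region of the immunoglobulin mu chain, had 31.5 CPM in vehicle and then 24.5, 26.02, 54.1 and 92.3 CPM after 2, 6, 12 and 24 h (1.91, 1.81 to 2.02). The 10 B cell markers summed to 93.8 CPM at 24 h and 25.9 CPM at 2 h, nearly all of it Ighm, with Pax5 at 0 in both libraries and Ms4a1 at 0.375 CPM at 24 h and 0.107 CPM at 2 h. Among the glucose-sensing arrestins, Txnip was at 258 CPM at 24 h and 116 CPM at 2 h (1.16) and Arrdc4 at 15.95 and 5.44 CPM (1.54), while Arrdc3 was at 9.91 and 17.9 CPM (-0.85). Of genes outside the ATF4 lists, Erdr1 (-1.87), Fam43a (-1.70), the apolipoprotein L gene Apol7c (-1.59), Ppp1r14a (-1.46) and Fndc5 (-1.43) were among the lowest, and the ciliary transcription factor Foxj1 was among the highest (1.66). The nuclear non-coding RNA Malat1 was at 81.7 CPM at 24 h and 149.9 CPM at 2 h (-0.88) and lay lower in each later library than in vehicle (274 CPM).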
